A study of Mus musculus with 2 samples.

Results

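Cfd, Retn, Lep, Serpina12, Agt, Kng2, Mrap and Chrdl1 are 8 of the 32286 features in the count matrices, and they were picked by gene symbol. Most of their products are secreted by fat or liver cells as hormones, hormone precursors or inhibitors. Mrap is the exception, being a membrane protein that serves a hormone receptor. The series holds 2 single-cell RNA-seq libraries from male Adipoq-CreERT2;Ai9 mice, in which the Adipoq promoter drives a tamoxifen-inducible Cre and Ai9 is a Cre-dependent tdTomato reporter. All mice, 4 in the study, had tamoxifen by oral gavage on 3 days at 8 weeks of age. The chase library was harvested 4 weeks later and the pulse library 24 h later. Both came from bright tdTomato+ cells of digested endosteal bone of femur and tibia, which made up 0.29% of all cells in the chase sort and 0.01% in the pulse sort. How many of the mice went into each library is not stated. The study looked for labelled stromal cells with both fat and bone features, and the 8 genes were followed across its stromal, bone and blood cell classes. With 1 library at each time, no replicate test was possible, time and library cannot be told apart, and every interval below is a 95% interval that covers counting error only.

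CAR cells (CXCL12-abundant reticular cells) are perivascular stromal cells of marrow that make Cxcl12, carry the leptin receptor and, in the adipogenic type, make Adipoq, the gene of the hormone adiponectin. Agt encodes angiotensinogen, the sole precursor of the angiotensins, and Kng2 encodes a kininogen, the precursor of bradykinin. Serpina12 encodes vaspin, a secreted inhibitor of kallikrein-related proteases, and Chrdl1 encodes a secreted antagonist of BMPs, which are bone- and fat-regulating growth factors. Cfd encodes adipsin, the serine protease that starts the alternative complement pathway and that white fat cells make in large amounts. Retn encodes resistin and Lep encodes leptin, both of them hormones of mature mouse fat cells. Mrap encodes the accessory protein that brings the ACTH receptor Mc2r to the cell surface.

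The promoters of 6 of the 8 genes matched the RefSeq table of the GRCm38.p6 build, and each sequence runs from 250 bases before to 50 bases after the start site on the strand of the gene. They were searched on both strands for TTGCNNAA (a C/EBP-type motif), AGGTCA (bound by nuclear receptors) and TATAAA (the TATA box), which occur in 10.8%, 16.3% and 13.6% of 32851 promoters of the same length of 300 bases. The 4 promoters shown are those of Serpina12, Agt and Kng2, which were spread over adipogenic CAR cells, and of Cfd, which few cells held. Capitals mark a motif. They lie at chr12:104044394-104044693 on the minus strand (Serpina12), chr8:124569657-124569956 on the minus strand (Agt), chr16:23029052-23029351 on the minus strand (Kng2) and chr10:79890603-79890902 on the plus strand (Cfd).
Serpina12: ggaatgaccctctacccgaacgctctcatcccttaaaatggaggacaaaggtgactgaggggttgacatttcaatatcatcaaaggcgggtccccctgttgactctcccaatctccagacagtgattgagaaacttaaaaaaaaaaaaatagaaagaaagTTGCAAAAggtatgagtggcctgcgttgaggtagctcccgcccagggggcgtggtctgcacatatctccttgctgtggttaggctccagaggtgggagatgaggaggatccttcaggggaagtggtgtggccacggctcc
Agt: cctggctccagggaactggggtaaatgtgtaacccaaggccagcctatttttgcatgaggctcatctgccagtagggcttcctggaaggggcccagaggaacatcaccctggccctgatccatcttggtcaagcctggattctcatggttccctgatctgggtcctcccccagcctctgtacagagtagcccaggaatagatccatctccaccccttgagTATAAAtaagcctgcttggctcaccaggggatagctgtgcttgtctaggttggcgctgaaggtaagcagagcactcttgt
Kng2: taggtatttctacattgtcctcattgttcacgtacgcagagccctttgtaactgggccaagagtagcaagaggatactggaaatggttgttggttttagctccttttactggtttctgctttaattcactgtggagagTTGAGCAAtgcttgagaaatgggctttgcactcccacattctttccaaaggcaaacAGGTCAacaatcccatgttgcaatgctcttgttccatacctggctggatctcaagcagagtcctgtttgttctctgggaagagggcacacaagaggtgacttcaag
Cfd: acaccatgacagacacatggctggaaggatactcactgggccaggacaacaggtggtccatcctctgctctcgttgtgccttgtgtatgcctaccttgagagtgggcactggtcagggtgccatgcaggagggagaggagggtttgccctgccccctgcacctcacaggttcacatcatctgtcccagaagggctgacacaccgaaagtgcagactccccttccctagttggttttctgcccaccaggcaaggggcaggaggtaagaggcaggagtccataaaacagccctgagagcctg
The Serpina12 motif is TTGCNNAA at bases -90 to -83 from the start site. Agt holds TATAAA at -30 to -25. Kng2 holds TTGCNNAA on its minus strand at -112 to -105 and AGGTCA at -56 to -51. Lep also holds TTGCNNAA, at -55 to -48, and none of the 3 motifs is in the windows of Cfd and Retn.

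The chase library held 10046 barcodes with a median of 6592 UMIs (molecules counted once by their tag), and the pulse library held 10608 barcodes with a median of 7067.5. After filters 8335 chase and 9212 pulse cells were kept, and 52 barcodes occur in both libraries. Clusters were formed without the 8 genes and named from marker lists. CAR-like cells made up 50.02% of kept cells in chase (4169) and 48.0% in pulse (4423), and blood-like cells made up 33.1% in chase and 36.6% in pulse. Within CAR-like cells, counts of Adipoq and of Alpl, an early osteoblast enzyme, defined 3 subsets. Double-positive cells held at least 2 UMIs of each gene (611 chase, 734 pulse), osteogenic cells held at least 2 Alpl and at most 1 Adipoq UMI (295 chase, 346 pulse), and Alpl-negative adipogenic cells held at least 2 Adipoq and 0 Alpl UMIs (2397 chase, 2512 pulse). The gates cut a continuous range, since 205 chase and 231 pulse CAR-like cells held exactly 1 Adipoq UMI and 674 and 634 held exactly 1 Alpl UMI. Most adipogenic cells fell in clusters 0 and 2 in chase and in clusters 1 and 5 in pulse. The tdTomato transcript measured 2051 CPM (UMI counts of a class scaled to a common class total) in CAR-like and 287 CPM in blood-like cells of the chase library, and 2107 CPM in CAR-like and 490 CPM in blood-like cells of the pulse library. Free RNA can add counts of abundant stromal genes to other cells, so the level of Adipoq outside the stroma is given beside the levels of the 8 genes. The blood-like level is also given without the 4 blood clusters that held at least 400 CPM of Adipoq, a removal chosen after seeing the data.

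The hormone precursor Agt was highest in Alpl-negative adipogenic CAR cells and lower by steps toward bone. In the chase library it measured 588 CPM in double-positive, 218 CPM in osteogenic CAR, 56.4 CPM in osteoblast-like and 747 CPM in Alpl-negative adipogenic cells. In the pulse library it measured 511 CPM in double-positive, 156 CPM in osteogenic CAR, 52.3 CPM in osteoblast-like and 760 CPM in Alpl-negative adipogenic cells. The counting intervals of these 4 classes did not overlap in either library. After each cell was thinned to 2000 UMIs, 33.5% of osteogenic CAR cells in chase and 28.4% in pulse held an Agt UMI, against 75.04% (chase) and 76.4% (pulse) of Alpl-negative adipogenic cells and 7.20% (chase) and 8.61% (pulse) of blood-like cells, which should lack it. Unthinned, 66.8% of osteogenic CAR cells in chase and 63.0% in pulse held one (median depth 7770 and 9180.5 UMIs), against 18.2% (chase) and 16.1% (pulse) of blood-like cells (8465 and 5605.5 UMIs). Osteocyte-like cells, few in number, held Agt at 142 CPM in chase (31 UMIs in 11 cells) and at 144 CPM in pulse (189 UMIs in 69 cells). That was 19.1% and 18.9% of the Alpl-negative adipogenic level, while Adipoq in the same cells was at 0.862% and 2.56% of its own. In osteoblast-like cells Agt stood at 7.55% in chase and 6.88% in pulse, and Adipoq at 1.36% and 1.45%.

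Kng2, the kininogen gene, followed the same order within the stroma but was lower outside the adipogenic cells. In chase it measured 389 CPM in double-positive, 70.7 CPM in osteogenic CAR, 9.95 CPM in osteoblast-like and 545 CPM in Alpl-negative adipogenic cells. In pulse it measured 447 CPM in double-positive, 111 CPM in osteogenic CAR, 11.7 CPM in osteoblast-like and 626 CPM in Alpl-negative adipogenic cells. The osteoblast-like values lie below those of blood-like cells, 29.2 CPM in chase and 75.3 CPM in pulse, and also below 15.4 CPM in chase and 28.9 CPM in pulse without the Adipoq-rich blood clusters. In osteogenic CAR cells a Kng2 UMI was present after thinning in 13.9% of cells in chase and 21.5% in pulse, against 4.83% (chase) and 7.36% (pulse) of blood-like cells. Of the 50-base words in the last 300 bases of its annotated transcripts, 196 of 793 (24.7%) occur also in Kng1, so the split of counts between the 2 kininogen genes is uncertain. None of the other 7 genes shares such words with another gene.

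Serpina12, the vaspin gene, was a feature of both Adipoq-positive subsets. It measured 167 CPM in double-positive, 39.8 CPM in osteogenic CAR, 11.8 CPM in osteoblast-like and 214 CPM in Alpl-negative adipogenic cells of the chase library. It measured 179 CPM in double-positive, 40.4 CPM in osteogenic CAR, 21.4 CPM in osteoblast-like and 294 CPM in Alpl-negative adipogenic cells of the pulse library. The osteoblast-like levels lie below those of blood-like cells (13.3 CPM in chase, 30.7 CPM in pulse) but above 6.17 CPM in chase and 11.4 CPM in pulse, the blood-like levels of Serpina12 without the Adipoq-rich clusters. Thinned to 2000 UMIs, 26.5% of Alpl-negative adipogenic cells in chase and 35.9% in pulse held a Serpina12 UMI, against 2.88% (chase) and 3.38% (pulse) of blood-like cells.

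Chrdl1, the BMP antagonist gene, had the steepest step between the adipogenic and osteogenic subsets among the genes that were spread over many cells. Chrdl1 measured 503 CPM in double-positive, 25.9 CPM in osteogenic CAR, 9.60 CPM in osteoblast-like and 946 CPM in Alpl-negative adipogenic cells of the chase library. In pulse, Chrdl1 measured 291 CPM in double-positive, 13.1 CPM in osteogenic CAR, 10.8 CPM in osteoblast-like and 858 CPM in Alpl-negative adipogenic cells. The osteogenic and osteoblast-like levels of Chrdl1 lay below its blood-like level in both libraries (45.6 CPM in chase, 82.7 CPM in pulse). Without the Adipoq-rich clusters the blood-like level of Chrdl1 was 21.5 CPM in chase and 28.8 CPM in pulse, so the osteogenic level lay above it in chase and below it in pulse.

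Mrap, the ACTH receptor accessory gene, was a low transcript of the adipogenic cells on average, with an uneven spread over their clusters. Its levels in chase were 22.8 CPM in double-positive (127 UMIs), 5.34 CPM in osteogenic CAR (13 UMIs), 0.343 CPM in osteoblast-like (2 UMIs) and 41.5 CPM in Alpl-negative adipogenic cells (652 UMIs). Its levels in pulse were 26.8 CPM in double-positive (212 UMIs), 9.40 CPM in osteogenic CAR (33 UMIs), 1.17 CPM in osteoblast-like (10 UMIs) and 38.8 CPM in Alpl-negative adipogenic cells (783 UMIs). Blood-like cells held Mrap at 6.82 CPM in chase and 11.9 CPM in pulse, most of it in macrophage-like cells (161 of 196 and 218 of 306 UMIs), and T or NK cell-like cells held 2 UMIs in chase and 0 in pulse. The osteogenic CAR level was 12.9% in chase and 24.2% in pulse of the Alpl-negative adipogenic level of Mrap. In adipogenic cluster 9 Mrap measured 183 CPM in chase (394 UMIs in 298 cells) and 157 CPM in pulse (425 UMIs in 360 cells). All CAR-like cells held 923 Mrap UMIs in chase and 1164 in pulse. In the main adipogenic clusters Mrap measured 22.7 CPM (cluster 0) and 20.8 CPM (cluster 2) in chase, and 22.7 CPM (cluster 1) and 22.5 CPM (cluster 5) in pulse.

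**Figure D1:**
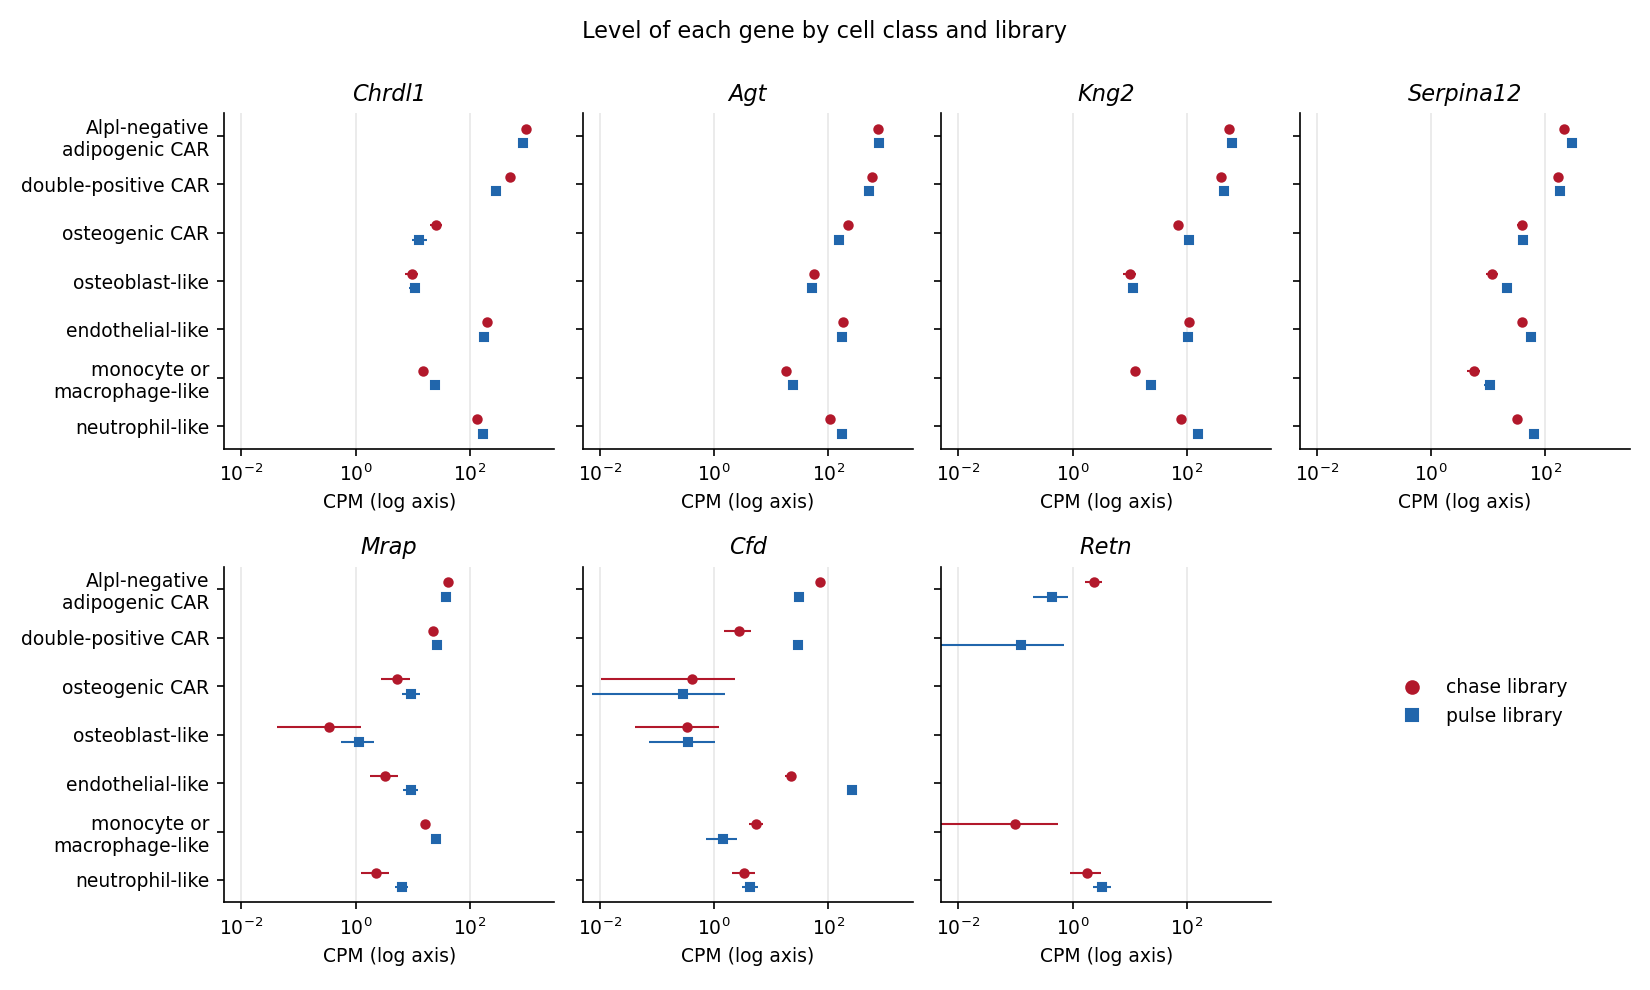
Level of each gene in CPM (log axis) in 7 cell classes, with the chase library (circles) above the pulse library (squares) and bars for the 95% Poisson interval of the summed count. Agt, Kng2, Serpina12 and Chrdl1 step down from Alpl-negative adipogenic to osteogenic CAR and osteoblast-like cells, with Agt in chase at 56.4 CPM in osteoblast-like and 747 CPM in Alpl-negative adipogenic cells, and levels of 0 are not drawn.

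Within CAR-like cells a handful of cells held most molecules of the fat-cell genes Cfd and Retn. Adipsin (Cfd) had 1202 UMIs in CAR-like cells of the chase library and 864 in those of the pulse library, and 3 chase cells and 4 pulse cells held 50% of them. The 12 chase and 13 pulse CAR-like cells with at least 10 Cfd UMIs held 89.1% and 85.6% of the total, from 10 to 257 UMIs each in chase and from 10 to 212 in pulse. Without these cells Cfd stood at 4.51 CPM in chase and 3.29 CPM in pulse CAR-like cells, beside 2.96 CPM in chase and 2.18 CPM in pulse blood-like cells. Of them, 10 chase and 10 pulse cells belonged to cluster 9, whose leading genes include the lipid droplet gene Plin1, the lipoprotein lipase gene Lpl and Scd1, a fatty acid desaturase. Kng2, Agt and Chrdl1 were spread instead: 50% of the Agt UMIs lay in 1003 chase and 1065 pulse cells, those of Kng2 in 873 and 998, those of Chrdl1 in 841 and 805. Serpina12 needed 385 chase and 479 pulse cells and Mrap 109 and 152, so these genes lie between the extremes.

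Resistin (Retn) had 38 UMIs in 13 CAR-like cells of the chase library and 15 UMIs in 6 cells of the pulse library. The 2 cells with the most Retn held 50% of the gene's UMIs in each library. Of those Retn-positive cells, 7 of 13 in chase and 3 of 6 in pulse held Cfd as well, against 1.78% and 1.65% of all CAR-like cells, and 9 of 13 and 5 of 6 held Mrap, against 11.8% and 14.4%. Leptin (Lep) had 0 UMIs in all barcodes of both libraries. A count of 0 allows a level of up to 0.103 CPM in chase and 0.0794 CPM in pulse CAR-like cells, and up to 0.0360% of kept chase cells and 0.0326% of kept pulse cells with a UMI. The limit is looser in the few CAR-like cells with lipid droplet transcripts, defined below (36 chase and 44 pulse cells). There a count of 0 allows up to 9.49 CPM in chase and 7.08 CPM in pulse. Leptin transcript was thus not detectable at this depth, while its receptor gene Lepr measured 989 CPM in chase and 609 CPM in pulse CAR-like cells.

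To see whether these genes lie in cells with lipid droplet transcripts, CAR-like cells with at least 2 UMIs summed over Plin1, Cidec and Plin4, which coat or fuse lipid droplets, were set against those with 0. The gate took 36 chase cells (0.864% of CAR-like cells, interval 0.606 to 1.19, exact binomial) and 44 pulse cells (0.995%, 0.724 to 1.33), and 38 chase and 33 pulse cells with 1 UMI lay just outside it. Cluster 9 held 31 of the 36 and 43 of the 44. Cfd measured 2621 CPM in gate-positive and 7.95 CPM in gate-negative chase cells (ratio 330, interval 284 to 384). In pulse Cfd measured 1211 CPM in gate-positive and 9.04 CPM in gate-negative cells (ratio 134, 117 to 154). These counting intervals are too narrow as a guide to cell-to-cell spread, since only 16 of the 36 chase and 20 of the 44 pulse gate-positive cells held any Cfd. Retn lay in the same cells, with 35 of its 38 CAR-like UMIs in gate-positive cells in chase and 13 of 15 in pulse. Mrap was higher by a like factor in both libraries, at 345 CPM in gate-positive and 26.8 CPM in gate-negative chase cells (ratio 12.9, 10.4 to 15.8) and at 357 CPM in gate-positive and 26.3 CPM in gate-negative pulse cells (ratio 13.6, 11.4 to 16.1). It was also broad within the gate, with a UMI in 28 of 36 chase and 38 of 44 pulse cells.

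Serpina12 was more than 2-fold higher in gate-positive cells of the chase library, at 383 CPM in gate-positive and 179 CPM in gate-negative cells (ratio 2.14, 1.77 to 2.57). It measured 229 CPM in gate-positive (97 UMIs) and 238 CPM in gate-negative cells of the pulse library (ratio 0.962, 0.779 to 1.17). In cluster 9 as a whole Serpina12 measured 454 CPM in chase (979 UMIs in 298 cells) and 372 CPM in pulse (1005 UMIs in 360 cells). In the main adipogenic clusters it measured 180 CPM (cluster 0) and 200 CPM (cluster 2) in chase, and 277 CPM (cluster 1) and 276 CPM (cluster 5) in pulse. Agt was close to even, with ratios of 1.13 in chase and 1.18 in pulse. Kng2 (0.688 in chase, 0.590 in pulse) and Chrdl1 (0.695 in chase, 0.755 in pulse) were lower in gate-positive cells. Of the 6 members with at least 50 UMIs, 3 lay past 2-fold in chase, where 28% of 11852 genes did, and 2 in pulse, where 23.4% of 12164 did. Their median log2 ratio was 0.65 in chase and 0.10 in pulse, against 0.06 and 0.04 for all genes tested.

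Gate-positive cells were not free of other markers. Summed over 8 monocyte and macrophage markers they held 2030 CPM in chase and 2404 CPM in pulse, against 1541 CPM in chase and 1495 CPM in pulse gate-negative cells. The 8 include Vcam1, which alone gave 690 CPM in 1 endothelial-like pulse cell where the others were at 0. The sums were not split by marker, so they do not show how much is macrophage RNA. In gate-positive cells 6 of these markers were detected in chase (Adgre1 and F13a1 at 0) and 7 in pulse (Ly6c2 at 0), and their part in the result was not tested. Their median depth was 8793.5 UMIs in chase and 8285.5 in pulse, against 6661 and 8161.5 in gate-negative cells. Of 8 mature adipocyte markers, 3 of them the gate genes themselves, 7 in chase and 8 in pulse were detected in gate-positive cells, and no cluster was named for that cell type. The CAR-like name of these cells also depends on the doublet step: with doublets removed at the loading rate only 4 chase and 3 pulse gate-positive cells remained in CAR-like clusters, and 32 and 41 were in an unnamed one. Over those few cells the ratio was 0.630 for Serpina12 and 0 for Mrap in chase and 0 for Cfd in pulse. With the libraries clustered separately, 36 chase and 0 pulse gate-positive cells were CAR-like.

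**Figure D2:**
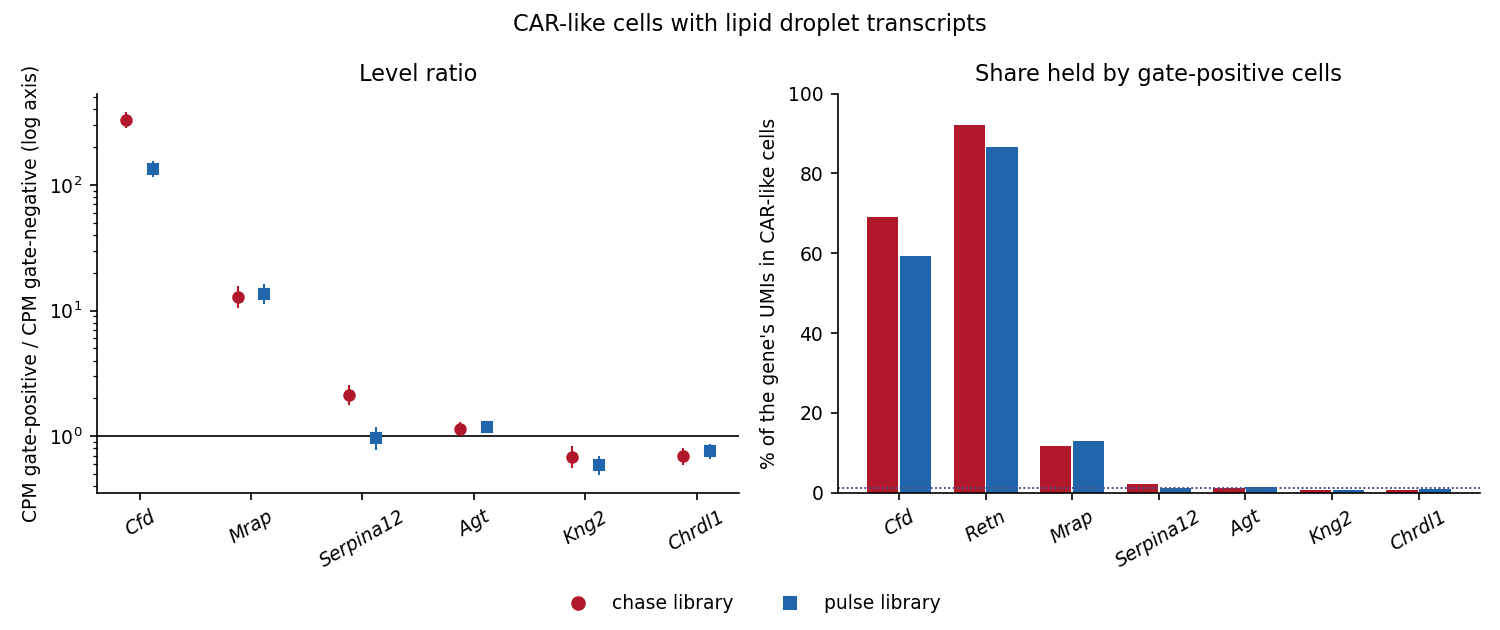
Left, ratio of the level in lipid droplet gate-positive over gate-negative CAR-like cells (log axis, bars are 95% counting intervals). Right, percentage of the CAR-like UMIs of each gene that gate-positive cells held, where Cfd reaches 69.0% in chase and 59.4% in pulse while the dotted lines mark the share of all CAR-like UMIs in those cells (1.09% and 1.12%).

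Cells removed by the filters also held adipsin transcript. Barcodes that failed the filters carried 791 Cfd UMIs in chase and 1617 in pulse, against 1395 and 2126 in kept cells. Most lay in 15 chase and 13 pulse barcodes with at least 10 Cfd UMIs each (764 and 1601 UMIs), which had a median mitochondrial share of 14.7% and 12.97% and a median of 938 and 892 UMIs. The kept level of Cfd therefore leaves out a large part of its molecules in both libraries.

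Between stromal subsets of 1 library, all 6 members that could be compared were lower in osteogenic than in Alpl-negative adipogenic CAR cells by more than 2-fold, in chase and in pulse. At that limit 15.2% of 11132 genes in chase and 15.3% of 11485 genes in pulse lay past 2-fold, and 9.07% and 8.62% were lower. Cfd and Mrap in both libraries, and Chrdl1 in pulse, passed the minimum of 50 UMIs only through the adipogenic cells. These counts therefore describe the members and support nothing further. The smallest step was that of Agt, at a ratio of 0.292 (0.267 to 0.319) in chase and 0.205 (0.188 to 0.224) in pulse. Serpina12 stood at 0.186 in chase and 0.137 in pulse, Kng2 at 0.130 and 0.177, and Mrap at 0.129 and 0.242. Chrdl1 stood at 0.0274 (0.0210 to 0.0350) in chase and 0.0153 (0.0112 to 0.0204) in pulse. Cfd had 1 UMI in osteogenic CAR cells of each library, a ratio of 0.00575 (0.000145 to 0.0321) in chase and 0.00929 (0.000235 to 0.0520) in pulse. The median log2 ratio of the 6 was -2.92 in chase and -2.68 in pulse, against 0.04 and 0.00 for all genes tested. With the blood-like level taken off, 3 members kept enough counts to compare, and Serpina12, Agt and Kng2 were all lower by more than 2-fold in both libraries.

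Double-positive cells, which carry both gate genes, stood much nearer to the Alpl-negative adipogenic cells. The ratio of double-positive over Alpl-negative adipogenic cells was 0.787 in chase and 0.673 in pulse for Agt, 0.714 and 0.713 for Kng2, 0.780 and 0.607 for Serpina12, and 0.549 and 0.690 for Mrap. Chrdl1 was the member with the lowest ratio in pulse, at 0.340 (0.325 to 0.355), and stood at 0.532 (0.511 to 0.554) in chase. Of 6 members 1 lay past 2-fold in each library, Cfd in chase and Chrdl1 in pulse, where 3.05% of 11330 and 4.68% of 11682 genes did. The ratio of Cfd was 0.0376 in chase and 0.952 in pulse, and the pulse value rested on 1 double-positive cell with 212 of the 231 Cfd UMIs. Without the cell with the most Cfd, the pulse ratio was 0.0784, an alternative chosen after seeing the data. Adipoq, which the gate requires in both subsets, stood at 80.4% in chase and 67.8% in pulse of its Alpl-negative adipogenic level.

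In osteoblast-like cells all 6 members lay more than 2-fold below the Alpl-negative adipogenic level, against 49.9% of genes past 2-fold (44.5% lower) in chase and 55.5% (49.8% lower) in pulse. Cfd and Mrap passed the minimum of 50 UMIs only through the adipogenic cells, so this count describes the members and supports nothing further. Agt (0.0755 in chase, 0.0688 in pulse) and Serpina12 (0.0552 and 0.0728) had the highest ratios. Kng2 stood at 0.0183 in chase and 0.0186 in pulse, and Chrdl1 at 0.0102 and 0.0126. Mrap had 2 UMIs in chase, a ratio of 0.00827 (0.00100 to 0.0300), and 10 in pulse, a ratio of 0.0300 (0.0144 to 0.0556). Cfd had 2 and 3 UMIs there, ratios of 0.00480 (0.000580 to 0.0174) in chase and 0.0114 (0.00235 to 0.0335) in pulse. Osteoblast-like cells had deeper profiles, with medians of 19507 UMIs in chase and 23158 in pulse.

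**Figure D3:**
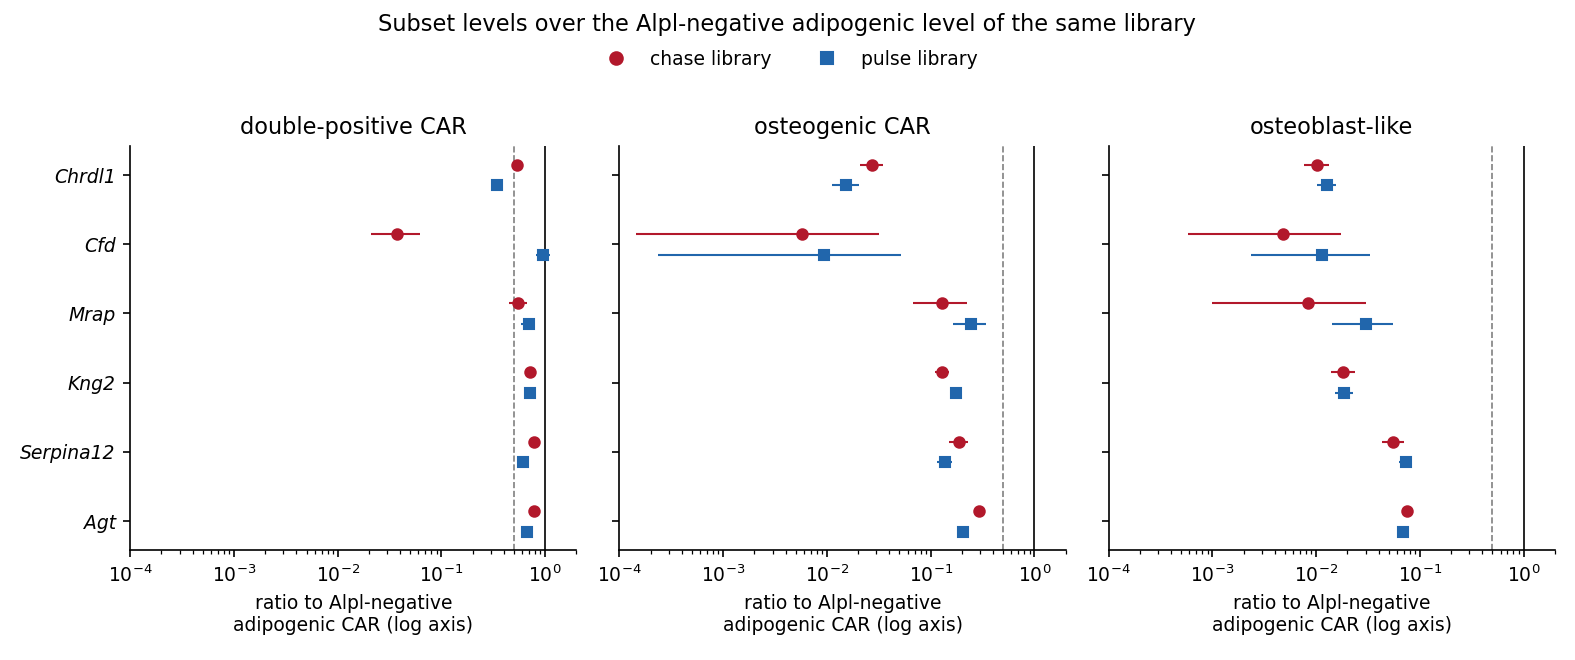
Ratio of the level in double-positive, osteogenic CAR and osteoblast-like cells to that in Alpl-negative adipogenic CAR cells of the same library (log axis), chase circles above pulse squares, with 95% counting intervals and a dashed line at 0.5. Chrdl1 drops to 0.0274 in chase and 0.0153 in pulse osteogenic CAR cells, while Agt stays at 0.292 and 0.205.

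Chase was compared with pulse within each class, to see what differed 4 weeks after labelling from 24 h after it. In all CAR-like cells Retn alone of 7 members lay past 2-fold, where 4.52% of 13140 genes did. Retn measured 1.31 CPM in chase and 0.397 CPM in pulse (38 and 15 UMIs), a ratio of 3.29 (1.77 to 6.44), and 2.25 without the cell with the most Retn. Without the cells of at least 10 Cfd UMIs, a removal chosen after seeing the data, Retn stood at 0.345 CPM in chase and 0.345 CPM in pulse (10 and 13 UMIs). Cfd, at a ratio of 1.81, was the member past 2-fold when the libraries were clustered separately (16.8), where 0 pulse gate-positive cells were CAR-like. Agt measured 653 CPM in chase and 629 CPM in pulse, a ratio of 1.04 (1.02 to 1.06), and Mrap measured 31.7 CPM in chase and 30.8 CPM in pulse, a ratio of 1.03 (0.944 to 1.12). Both were thus close to even between the libraries. Serpina12 was lower in chase, at 184 CPM in chase and 237 CPM in pulse (0.777, 0.751 to 0.804), as was Kng2, at 461 CPM in chase and 530 CPM in pulse (0.871, 0.852 to 0.890). Chrdl1 was higher, at 759 CPM in chase and 617 CPM in pulse (1.23, 1.21 to 1.25). Whether differences of this size exceed those between mice cannot be told from 1 library each.

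The subsets showed the same small steps with some exceptions. In Alpl-negative adipogenic cells the ratio of chase over pulse was 0.982 for Agt, 0.870 for Kng2, 0.729 for Serpina12, 1.10 for Chrdl1 and 1.07 for Mrap. Cfd was the only one of 6 members past 2-fold there, where 4.38% of 11996 genes were, at 71.5 CPM in chase and 30.7 CPM in pulse (2.33, 2.11 to 2.58). That value was 1.80 without the single cell with the most Cfd, a chase cell, and 1.28 without lipid droplet gate-positive cells, both chosen after seeing the data, and 0.825 with cells gated 1 by 1 without clusters. With the top cell of each library left out Cfd measured 55.1 CPM in chase and 25.5 CPM in pulse. In double-positive cells Cfd measured 2.69 CPM in chase and 29.2 CPM in pulse (0.0922, 0.0508 to 0.155), and 1 of 6 members was past 2-fold against 4.76% of 10740 genes. Without the single cell with the most Cfd, a pulse cell, this ratio was 1.12, and with the top cell of each library left out Cfd measured 1.08 CPM in chase and 2.40 CPM in pulse. Chrdl1 was at 503 CPM in chase and 291 CPM in pulse double-positive cells, a ratio of 1.73 (1.63 to 1.83), while Agt stood at 1.15 (1.10 to 1.20).

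In osteogenic CAR cells none of 4 members lay past 2-fold, where 3.24% of 9132 genes did. Agt was at 218 CPM in chase and 156 CPM in pulse, a ratio of 1.40 (1.24 to 1.58), and Kng2 was at 70.7 CPM in chase and 111 CPM in pulse, a ratio of 0.638 (0.530 to 0.765). Blood-like cells had the lower value of each in chase, at 43.4 CPM in chase and 85.6 CPM in pulse for Agt, and 29.2 CPM in chase and 75.3 CPM in pulse for Kng2. With the blood-like level of each library taken off, the ratio of chase over pulse was 2.48 for Agt and 1.17 for Kng2, so that Kng2 changed its side of even and Agt passed 2-fold. Chrdl1 had 63 UMIs in chase and 46 in pulse, a ratio of 1.98 (1.33 to 2.95). Its osteogenic level lay below its blood-like level, given above, in both libraries. With the blood-like level taken off Chrdl1 could therefore not be compared. Among osteoblast-like cells none of 4 members lay past 2-fold either, where 2.93% of 9224 genes did. Serpina12 measured 11.8 CPM in chase and 21.4 CPM in pulse osteoblast-like cells (0.552, 0.412 to 0.732). Both values lay below the blood-like levels of Serpina12 given above, which were also lower in chase. With the blood-like level taken off Serpina12 could not be compared there. Agt measured 56.4 CPM in chase and 52.3 CPM in pulse osteoblast-like cells (1.08, 0.933 to 1.25), above its blood-like level in chase and below it in pulse.

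**Figure D4:**
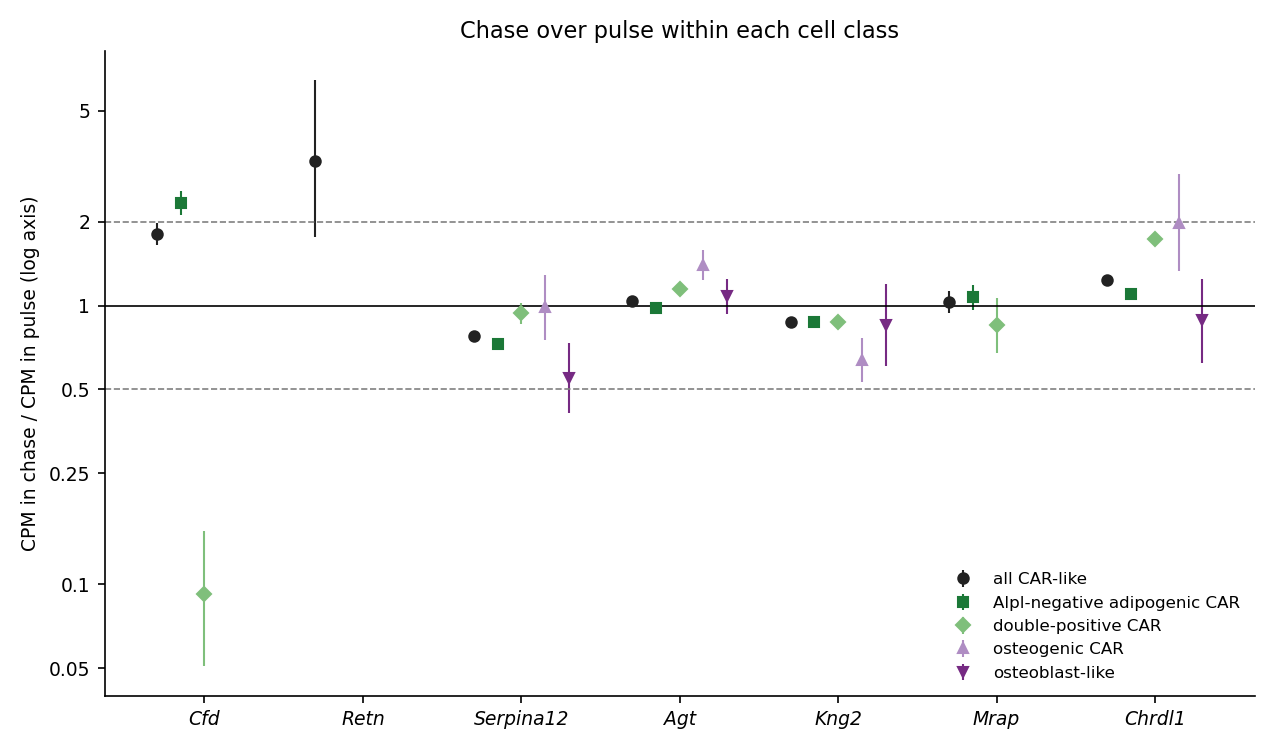
Level in chase over level in pulse (log axis) for members with at least 50 UMIs over both libraries in all CAR-like cells, the 3 CAR subsets and osteoblast-like cells, with 95% counting intervals and dashed lines at 0.5 and 2. Agt, Kng2, Serpina12 and Chrdl1 lie between the dashed lines in all 5 classes, and Cfd spans from 0.0922 in double-positive to 2.33 in Alpl-negative adipogenic cells.

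An interferon response marked some CAR-like cells, with at least 10 UMIs summed over Ifit1, Ifit3, Isg15, Rsad2, Cxcl9 and Cxcl10 in 494 chase and 225 pulse cells, against at most 1 UMI in 2307 and 2858. Mrap was at 49.6 CPM in gate-positive and 27.1 CPM in gate-negative chase cells (1.83, 1.54 to 2.17), and at 41.1 CPM in gate-positive and 31.6 CPM in gate-negative pulse cells (1.30, 1.04 to 1.61). Serpina12 had ratios of 1.42 in chase and 1.18 in pulse, while Agt (1.03 and 1.00), Kng2 (0.990 and 0.976) and Chrdl1 (1.09 and 1.00) were near even. Cfd was the 1 of 6 members past 2-fold in each library, at 0.170 in chase and 0.111 in pulse, where 2.38% and 3.75% of genes were past it. Without the cell with the most Cfd these ratios were 0.236 in chase and 0.141 in pulse, and with cells gated 1 by 1 without clusters they were 1.22 in chase and 0.126 in pulse.

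Outside the stroma, Agt, Kng2, Serpina12 and Chrdl1 stood near Adipoq in the larger classes when each gene was set against its own Alpl-negative adipogenic level, and Mrap, Retn and Cfd departed from it. In neutrophil-like cells Adipoq stood at 13.6% in chase and 20.7% in pulse of its Alpl-negative adipogenic level, and Agt (14.3% and 23.1%), Kng2 (14.3% and 24.7%), Chrdl1 (14.3% and 20.1%) and Serpina12 (15.1% and 21.6%) had like shares. These shares rest largely on cluster 17, with Adipoq at 847 CPM in chase (85 cells) and 931 CPM in pulse (234 cells). The neutrophil-like clusters 13, 15 and 19 held Adipoq at 71.8 to 277 CPM. Agt measured 323 CPM in chase and 374 CPM in pulse in cluster 17, and 17.2 to 91.5 CPM in those clusters. Endothelial-like cells had Adipoq at 21.8% in chase and 19.5% in pulse, with Agt at 24.1% and 22.6% and Chrdl1 at 21.1% and 20.8%. The part of carried-over RNA in these levels was not tested. In monocyte or macrophage-like cells Mrap measured 16.2 CPM in chase (161 UMIs) and 25.7 CPM in pulse (218 UMIs), 39.0% and 66.3% of its Alpl-negative adipogenic level, while Adipoq stood at 1.86% and 3.33% and Agt, Kng2, Serpina12 and Chrdl1 between 1.59% and 3.71%.

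The macrophage counts of Mrap lay mainly in cluster 4, led by Fcna, Cd5l and Spic, genes of tissue macrophages that clear red cells. There Mrap measured 31.9 CPM in chase (107 UMIs in 381 cells) and 34.4 CPM in pulse (204 UMIs in 819 cells), against 8.18 CPM in chase and 5.51 CPM in pulse in cluster 6, led by Ccl8 and MHC class II genes. Erythroid-like cells held Mrap at 13.6% in chase and 22.9% in pulse of the Alpl-negative adipogenic level, from 8 and 12 UMIs, with Adipoq at 1.59% and 2.64%. All of these Mrap UMIs lay in cluster 31 (17 chase and 47 pulse cells), whose leading genes include Fcna and Hmox1. The other erythroid-like cluster (79 chase and 81 pulse cells) held 0 Mrap UMIs in both libraries. Leaving out the 4 blood clusters with at least 400 CPM of Adipoq, chosen after seeing the data, the blood-like level of Mrap was 6.93 CPM in chase and 11.2 CPM in pulse, beside 6.82 and 11.9 CPM with them, whereas Agt was 22.1 CPM in chase and 33.0 CPM in pulse without them, against 43.4 and 85.6 CPM with them.

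Retn had 11 UMIs in chase and 31 in pulse neutrophil-like cells (1.78 and 3.32 CPM). In the neutrophil-like cluster led by Retnlg, a resistin-like paralog of neutrophils, Retn measured 25.8 CPM in chase (6 UMIs in 76 cells) and 29.9 CPM in pulse (16 UMIs in 161 cells), while Retnlg measured 30359 CPM in chase and 31220 CPM in pulse. None of the 50-base words in the last 300 bases of Retn occurs in another gene, and whether Retnlg reads were counted there was not tested. Cfd measured 5.42 CPM in chase (54 UMIs in 40 cells) and 1.42 CPM in pulse (12 UMIs in 11 cells) monocyte or macrophage-like cells, which was 7.59% and 4.62% of its Alpl-negative adipogenic level. Cfd in endothelial-like cells measured 22.0 CPM in chase and 258 CPM in pulse, and 1185 of the 1201 pulse UMIs lay in 1 cell that also held 44 Adipoq UMIs. Without cells of at least 10 Cfd UMIs the endothelial-like levels of Cfd were 7.04 CPM in chase and 3.44 CPM in pulse.

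**Figure D5:**
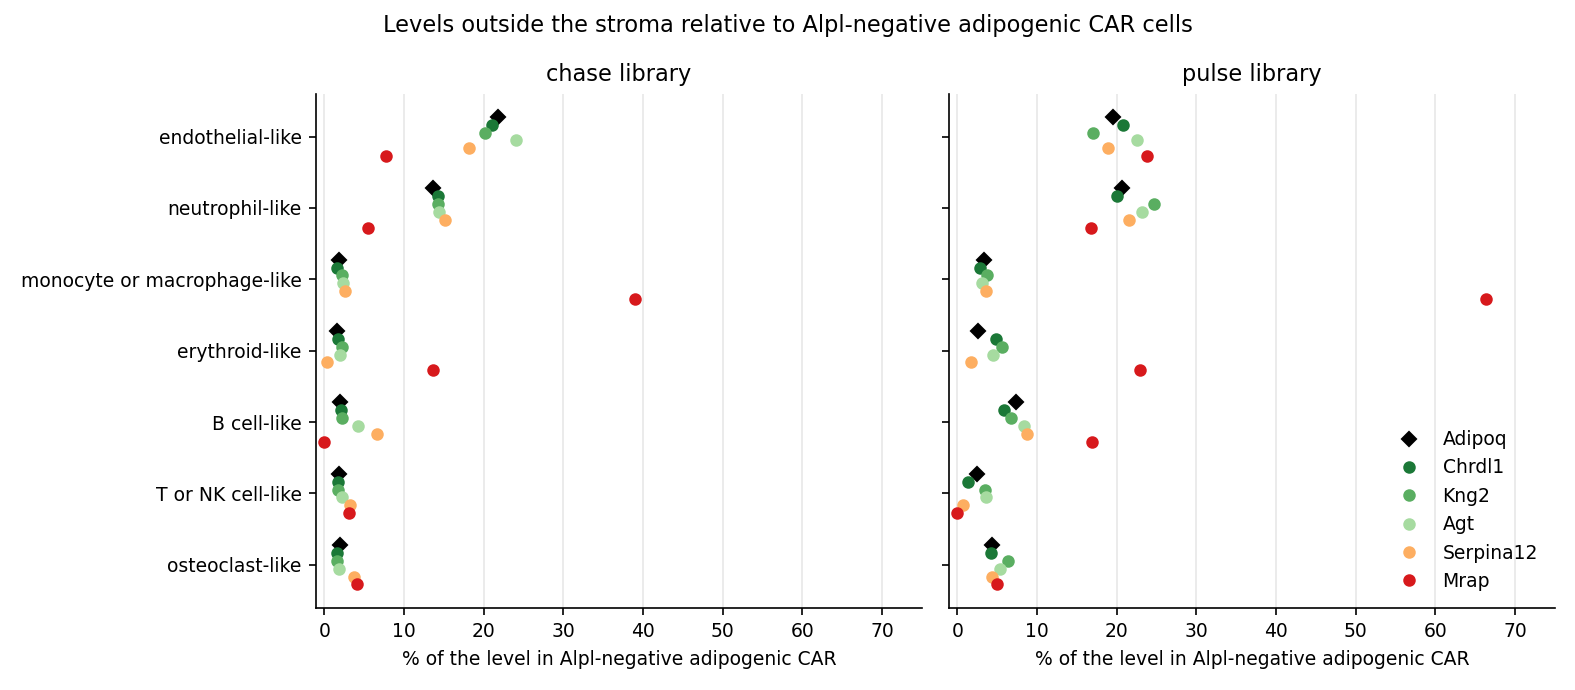
Level of Chrdl1, Kng2, Agt, Serpina12, Mrap and Adipoq (diamonds) in 7 classes outside the stroma as a percentage of the Alpl-negative adipogenic level, chase on the left and pulse on the right. Cfd, Retn and Lep are not drawn. Of the genes drawn, Mrap stands apart at 39.0% in chase and 66.3% in pulse monocyte or macrophage-like cells, where Adipoq is at 1.86% and 3.33%.

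The pathways around the members were read from lists drawn up by function. The renin-angiotensin list had 8 of 15 genes with enough counts in CAR-like cells, of which 1 was more than 2-fold higher in chase and none lower. The higher one was Ctsg, a granule protease of myeloid cells named after its values were seen. Ctsg measured 7.69 CPM in chase and 1.63 CPM in pulse Alpl-negative adipogenic cells. Blood-like cells held it at 917 CPM in chase and 368 CPM in pulse, and the part of carried-over RNA was not tested. Mme, which encodes the angiotensin-cleaving peptidase neprilysin, measured 362 CPM in chase and 261 CPM in pulse (1.38), and Ctsd, a lysosomal protease gene, 219 CPM in chase and 229 CPM in pulse (0.954). Of the kallikrein-kinin list only 3 of 11 genes could be compared and none passed 2-fold. Serping1, the gene of the C1 inhibitor that also blocks plasma kallikrein, measured 2501 CPM in chase and 1942 CPM in pulse (1.29). The median log2 ratio of chase over pulse was 0.12 for the renin-angiotensin and 0.37 for the kallikrein-kinin list, against -0.02 for all genes.

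Of the alternative complement list 8 of 12 genes were compared and 1 was higher, the central component gene C3, at 207 CPM in chase and 63.2 CPM in pulse (3.27, 3.12 to 3.43). Of 22 other adipokine genes 16 were compared, and 1 was higher and 1 lower past 2-fold. The lower one was Rbp4, the retinol carrier gene, at 34.3 CPM in chase and 148 CPM in pulse (0.232), and the higher one was the chemokine gene Ccl2, named after its values were seen. Rarres2, the chemerin gene, measured 499 CPM in chase and 347 CPM in pulse (1.44). The median log2 ratio was -0.35 for the complement and 0.19 for the adipokine list.

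None of 7 leptin signalling genes passed 2-fold in CAR-like cells, though their median log2 ratio was 0.41. Lepr had a ratio of 1.62 and Socs3, the gene of a feedback inhibitor of the leptin receptor, measured 817 CPM in chase and 418 CPM in pulse (1.95). Of 4 resistin partner genes none passed. Tlr4, a candidate resistin receptor gene, measured 37.7 CPM in chase and 19.2 CPM in pulse (1.96), Dcn, the decorin gene, 330.4 CPM in chase and 249.03 CPM in pulse, and Cap1 45.0 CPM in chase and 64.4 CPM in pulse. The single vaspin partner compared, the chaperone gene Hspa5, measured 1182 CPM in chase and 1293 CPM in pulse (0.914). Of 4 melanocortin genes compared Mc2r, the ACTH receptor that Mrap serves, was lower past 2-fold and is named after its values were seen, and Mc5r measured 31.2 CPM in chase and 29.96 CPM in pulse (1.04).

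Of 17 BMP ligand and antagonist genes 13 were compared and 1 was higher, the antagonist gene Nog, at 24.3 CPM in chase and 11.3 CPM in pulse (2.15). Grem1, another antagonist gene, measured 899 CPM in chase and 1028 CPM in pulse (0.875), and the follistatin-like gene Fstl1 1503 CPM in chase and 2346 CPM in pulse (0.641). Of 18 fat cell programme genes 17 were compared and 1 was higher, the lipid droplet gene Cidec, from 46 UMIs in chase and 5 in pulse and named after its values were seen. Lpl, the lipoprotein lipase gene, measured 1351 CPM in chase and 2324 CPM in pulse (0.581), and Cebpd, an early adipogenic transcription factor gene, 1231 CPM in chase and 768 CPM in pulse (1.60). These counts stand beside 4.52% of all genes past 2-fold, and the list sizes are too small to set any of them apart.

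Between osteogenic and Alpl-negative adipogenic CAR cells the partner lists held genes on both sides of the 2-fold limits. In chase 2 of 8 renin-angiotensin genes compared were lower and none higher, in pulse 2 of 7, and in both libraries the lower genes were Enpep and Mme, angiotensin-cleaving peptidase genes. Of 7 leptin signalling genes 3 were lower in each library, Lepr, Socs3 and Irs2. Of the BMP list 7 of 12 genes were lower in chase and 7 of 13 in pulse with none higher, and of the fat cell list 10 of 15 were lower and 1 higher in each library, where 9.07% of all genes in chase and 8.62% in pulse were lower by that much. In the lipid droplet gate, 12 of 14 fat cell programme genes were higher in each library, with 1 lower in chase and none in pulse, where 28% of all genes in chase and 23.4% in pulse lay past 2-fold in either direction. Fabp4, a fatty acid binding gene, measured 9653 CPM in gate-positive and 42.0 CPM in gate-negative chase cells, and 6906 CPM in gate-positive and 50.1 CPM in gate-negative pulse cells. It was not particular to the gate, since endothelial-like cells held Fabp4 at 6150 CPM in chase and 7241 CPM in pulse. Pparg, the master regulator gene of fat cell formation, had gate-positive over gate-negative ratios of 4.01 in chase and 3.99 in pulse. It measured 212 CPM in chase and 331 CPM in pulse gate-positive cells, beside 167 CPM in chase and 230 CPM in pulse endothelial-like cells. Fabp4, Pparg, Enpep and Irs2 are named after their values were seen.

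Genes whose levels ran most like those of a member across 16 cell classes of at least 10 cells were ranked by the lower of Pearson's r in the 2 libraries, on log2(CPM + 1). The classes of a library share its depth and its carried-over RNA, so r is a description. Kng2 was most like its paralog Kng1 (r = 0.983 in chase, 0.990 in pulse), with Gdpd2 (0.974 and 0.976) and Cxcl12 (0.982 and 0.967). The split of counts between Kng2 and Kng1 is uncertain, as given above, and its part in their r was not tested. Chrdl1 was most like Adipoq (0.990 in chase, 0.974 in pulse), with Efemp1 (0.970 and 0.969) and Timp4 (0.959 and 0.980). Agt was most like the growth hormone receptor gene Ghr (0.964 in chase, 0.984 in pulse), followed by Ltbp1 and Tgfb1i1. Mrap had its nearest match in Abca9 (0.907 in chase, 0.966 in pulse), then Lpl (0.903 and 0.901) and Dse. Serpina12 was most like Bmper (0.931 in chase, 0.933 in pulse), Pawr and Snai2, Cfd most like the lipid droplet gene Plin4 (0.896 in chase, 0.922 in pulse), AU015336 and Gm9951, and Retn most like Bmx (0.794 in chase, 0.834 in pulse), Adtrp and Dgat2. The profiles of Cfd and Retn rest on few cells. Cfd was highest in endothelial-like cells in pulse, where 1 cell held 1185 of 1201 UMIs and 32 UMIs summed over Plin1, Cidec and Plin4. The part of that cell in r was not tested. Retn had 0 UMIs in osteogenic CAR, osteoblast-like and endothelial-like cells of both libraries.

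Kng2 lies near Adipoq, the gene whose promoter drives the Cre. Kng2 is at chr16:22985854-23029482 on the minus strand (mm10, GENCODE M21), 117.1 kb before the start of Adipoq (chr16:23146536-23158028, plus strand), and Kng1, Eif4a2 and Rfc4 lie between them. Kng1 (chr16:23057865-23082078) had osteogenic over Alpl-negative adipogenic ratios of 0.165 in chase and 0.236 in pulse, beside 0.130 and 0.177 for Kng2. The ratios were 0.680 in chase and 0.818 in pulse for the translation factor gene Eif4a2 and 2.04 and 3.46 for the replication factor gene Rfc4, whose annotated ends overlap. Both kininogen genes were thus below the 2-fold limit in osteogenic CAR cells of both libraries, and Eif4a2 and Rfc4 were not. Adipoq is a gate gene of these subsets and is not compared here. The other members lie at chr10:79890853-79892655 (Cfd), chr8:3655770-3660110 (Retn), chr6:29060220-29073877 (Lep), chr12:104028769-104044443 (Serpina12), chr8:124556534-124569706 (Agt), chr16:90738207-90749785 (Mrap) and chrX:143285674-143394262 (Chrdl1).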

How the data were processed

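Single-cell 3 prime libraries (10x Genomics) were made from sorted tdTomato+ cells, 1 per time point. The matrices deposited by the authors are whole UMI counts for each gene and barcode, with no normalization. Cell Ranger 6.0.2 made them per the file headers, whereas 2.1.1, on the mm10 build, is named per the submitters' processing notes, and no annotation release is stated in them. Libraries totalled 82939659 (chase) and 89009901 (pulse) UMIs.

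Cells needed at least 500 genes, 1000 UMIs and under 10% mitochondrial UMIs (84.1% of chase and 88.5% of pulse barcodes passed). Scrublet removed 110 chase (1.30%) and 178 pulse (1.90%) cells; its random seed was chosen after seeing the data, and the loading rate would give 679 and 797. Both libraries were clustered together (scanpy 1.11.5, 2000 variable genes without the 8 members, 30 components, Leiden resolution 1). A cluster took a name from 20 marker lists with at least 3 markers at 20 CPM and 2-fold, a rule settled after seeing the data. UMIs were added up within each class of a library and given as CPM with exact Poisson intervals; ratios carry exact conditional binomial intervals, over genes with at least 50 UMIs in both groups together. No p-value was computed. The ratio step was tested on simulated data. The members and lists were chosen with earlier results of these data known. Beyond the 8 members, named genes are class checks, the 2 highest and the most changed gene of each list, the 3 nearest genes by likeness, chromosome neighbours, cluster leaders and counts of 5 or fewer. A gene that this rule names is not reported here. Thinned shares use cells of at least 2000 UMIs. Alternatives covered filters, doublets, clustering, gates, scaling, carried-over RNA, low counts and the fold.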

Additional observations from a re-analysis of the deposited data

Results flagged for a closer look

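Cfd was 2.33-fold higher in chase than in pulse in Alpl-negative adipogenic CAR cells, but its ratio of chase over pulse was 0.0922 in double-positive CAR cells. The effects point in opposite directions, and the difference between them was not tested, since each time point is 1 library. The 2.33 was 1.80 without the single cell with the most Cfd and 1.28 without lipid droplet gate-positive cells. It was 0.825 with cells gated 1 by 1. Without cells of at least 10 Cfd UMIs, Cfd measured 6.57 CPM in chase and 4.53 CPM in pulse Alpl-negative adipogenic cells. In double-positive cells it then measured 2.69 CPM in chase and 2.40 CPM in pulse. In double-positive cells of the pulse library 1 cell held 212 of the 231 Cfd UMIs, and without that cell the ratio was 1.12; with the top cell of each library left out Cfd measured 1.08 CPM in chase and 2.40 CPM in pulse.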

How the results depend on the processing

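No paired analysis was possible because each time point has 1 library, and for the same reason no replicate could be left out. Counts of members past 2-fold stayed within 1.5 times the reported count in 198 of 250 recomputations, and 52 moved. Of single values 1250 moved by less than their interval, 235 by more, and 6 reported as past 2-fold reversed. The 1250 include 83 with a minimum of 200 UMIs, 87 at a fold of 1.5 and 87 with no low filter. Those settings do not enter a ratio, so these values could not move. Ratios within 2-fold changed their side of 1 in 44 recomputations, in 20 by more than their interval, among them 0.655 for Cfd in all CAR-like cells with per-cell gates and 1.17 for Kng2 in osteogenic CAR cells with the blood-like level taken off (chase over pulse). For chase over pulse in all CAR-like cells the count was 0 with a minimum of 200 UMIs, with the blood-like level taken off, with doublets removed at the loading rate, with per-cell gates and without lipid droplet gate-positive cells, and 2 at a fold of 1.5. In Alpl-negative adipogenic cells it was 0 with loading-rate doublets, per-cell gates, gates on thinned counts, the mean of per-cell CPM, without the cell with the most UMIs and without gate-positive cells, and 2 with no filter on low counts. In double-positive cells it was 0 with stricter cell filters, separate clustering, thinned gates, without the top cell and without gate-positive cells, and 2 with no low filter or a fold of 1.5. In osteogenic CAR cells it was 1 with stricter filters, separate clustering and per-cell gates, and 2 with the blood-like level taken off or a fold of 1.5. In osteoblast-like cells it was 1 with stricter filters, separate clustering, no low filter and a fold of 1.5. Double-positive over Alpl-negative adipogenic gave 2 in chase with gates at 3 UMIs, no low filter and without the top cell, and 3 at a fold of 1.5. In pulse it gave 2 under stricter filters, loading-rate doublets, separate clustering, thinned gates, per-cell means, no low filter, a fold of 1.5, without the top cell and without gate-positive cells. With the blood-like level taken off fewer members could be compared, giving 3 for osteogenic over Alpl-negative adipogenic in each library and, for osteoblast-like, 1 in chase and 0 in pulse. The lipid droplet count in pulse was 5 with loading-rate doublets. The interferon count was 0 in chase with loading-rate doublets and per-cell gates, 2 in chase with the blood-like level taken off or a fold of 1.5, and 2 in pulse with no low filter.

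The reversed values were 0.630 for Serpina12 and 0 for Mrap (chase) and 0 for Cfd (pulse) in the lipid droplet gate with loading-rate doublets, where 4 chase and 3 pulse gate-positive cells remained. Cfd reversed to 0.825 for chase over pulse in Alpl-negative adipogenic cells and to 1.22 for the interferon gate in chase with per-cell gates, and to 1.12 for chase over pulse in double-positive cells without the single cell with the most Cfd, a pulse cell. Removals of cells were chosen after seeing the data; other causes were not tested. Osteogenic over Alpl-negative adipogenic ratios ranged over 17 alternatives from 0.248 to 0.353 (chase) and 0.104 to 0.295 (pulse) for Agt, and from 0.0179 to 0.0773 and 0.0136 to 0.0725 over 16 for Chrdl1, which could not be compared with the blood-like level taken off. Low counts limit Retn, Lep and the bone-class levels of Cfd and Mrap.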
